A study of Mus musculus with 3 samples.

Results

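Mitochondrial ribosomal protein genes were chosen by name, as every row of the expression table whose symbol starts with *Mrpl* or *Mrps* and goes on with a number and at most a letter a, b or c. The rule used no measured value. It found 76 genes among the 15554 rows, 49 of the large subunit, 26 of the small subunit and 1, *Mrps36*, that carries the name but belongs to the 2-oxoglutarate dehydrogenase complex. *Mrps18a* and *Mrps30* were counted with the large subunit, where their proteins sit in spite of their names. The cells were NIH3T3, an established line of mouse embryonic fibroblasts, starved of serum in IMDM for 24 h in all groups. Fresh serum-free IMDM was then given for another 24 h without stimulation (CTRL), with 100 ng/mL of GDF15 or with 4 ng/mL of TGF-β. RNA of 3 preparations was pooled for each treatment, and 1 stranded mRNA library per treatment was sequenced, so the 3 libraries share a line and a medium and differ in the added protein. No difference below has a replicate check, no p-value can be given, and in RNA of a whole culture fewer cells that express a gene and less of its RNA per cell cannot be told apart.

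Mitochondria keep ribosomes of their own, which make the few proteins encoded by mitochondrial DNA, all of them parts of the respiratory chain and of ATP synthase. The ribosomal RNAs come from mitochondrial DNA, but every protein of this ribosome is encoded in the nucleus, translated in the cytosol and imported. Some of these proteins descend from the bacterial ancestor, and others were added in mitochondria. In fibroblasts, as in most cells, the genes are expressed as a housekeeping group, and nuclear factors such as NRF1, GABPA and YY1 are known to bind promoters of genes of this kind.

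The libraries carried the profile of fibroblasts. All 9 fibroblast markers examined lay between 34.7 and 5815 FPKM (mapped fragments counted per length of the transcript and per sequenced total), while of 12 markers of epithelial, blood, endothelial and muscle cells 11 stayed below 1 FPKM, with *Epcam*, *Myod1* and *Myog* listed at 0 in all 3 libraries. The other was *Cd68*, a lysosomal protein abundant in macrophages, at 1.66, 1.14 and 1.67 FPKM. The steps by which low FPKM values rise put the depth of the CTRL library at 18.5, of the GDF15 library at 21.6 and of the TGF-β library at 17.8, in units of 1000000 fragments. All 76 members were matched to a GENCODE M21 gene (GRCm38), and they lie on 17 chromosomes. Their longest coding transcripts ran from 463 to 7300 bases with a median of 1302, against a median of 3149 in the 9150 other rows with a mean FPKM of at least 1. Most members are thus short, and 37 have a single coding transcript.

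The promoters of 4 members are shown because their genes mark the ends of the results below. *Mrpl33* had the highest FPKM in CTRL, *Mrpl52* the largest fall with GDF15, *Mrps18a* the largest fall with TGF-β, and *Mrpl16* stood highest against genes of similar length with both stimuli. Each line gives the 250 bases before the RefSeq start site (GRCm38.p6), 5′ to 3′ on the strand of the gene. Capitals mark the letters CGGAAG (the core of GABPA and other ETS factors), GCGCATGC (the core of NRF1) and AAGATGGC (the core of YY1), searched on both strands, so that CTTCCG is the first of these on the other strand. The windows are chr5:31613701-31613950, chr14:54426659-54426908, chr17:46110754-46111003 and chr19:11770165-11770414, in the order printed, and all 4 genes are on the plus strand.
Mrpl33: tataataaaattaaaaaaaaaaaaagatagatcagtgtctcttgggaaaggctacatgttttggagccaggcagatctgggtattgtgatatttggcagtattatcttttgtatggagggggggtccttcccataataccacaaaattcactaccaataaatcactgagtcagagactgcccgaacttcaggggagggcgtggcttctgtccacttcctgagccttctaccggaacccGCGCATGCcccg
Mrpl52: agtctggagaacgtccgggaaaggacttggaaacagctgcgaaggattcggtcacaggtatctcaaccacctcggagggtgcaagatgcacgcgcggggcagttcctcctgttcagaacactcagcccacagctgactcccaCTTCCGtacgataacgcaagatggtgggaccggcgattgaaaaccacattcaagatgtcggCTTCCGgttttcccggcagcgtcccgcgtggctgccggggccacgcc
Mrps18a: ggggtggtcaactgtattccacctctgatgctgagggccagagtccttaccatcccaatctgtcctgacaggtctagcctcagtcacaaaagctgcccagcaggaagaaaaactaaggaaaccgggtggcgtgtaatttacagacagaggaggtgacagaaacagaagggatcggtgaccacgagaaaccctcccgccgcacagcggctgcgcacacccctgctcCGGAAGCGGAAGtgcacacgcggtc
Mrpl16: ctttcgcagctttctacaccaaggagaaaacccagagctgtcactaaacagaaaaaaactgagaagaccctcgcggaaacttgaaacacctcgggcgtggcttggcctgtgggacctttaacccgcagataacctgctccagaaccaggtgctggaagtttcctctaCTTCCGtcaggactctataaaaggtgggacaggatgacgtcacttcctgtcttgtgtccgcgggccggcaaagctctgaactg

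Letters of at least 1 of these 3 motifs lay in the 300 bases around the start site (250 before, 50 after) of 44 of the 67 members with a RefSeq promoter (65.7%), against 40.8% of the 7391 expressed genes with one. The ETS core was found in 36 members (53.7%, against 34.4% of expressed genes and 17.2% of all 27025 promoters). The NRF1 core was found in 8 members (11.9%, 6.12% and 2.80%) and the YY1 core in 12 (17.9%, 5.25% and 2.88%). The box of SP1, GGGCGG, was in 33 members (49.3%), a lower share than in expressed genes (68.5%), and CCAAT was in 27 (40.3%) with a like share of 39.5%. A match is a run of letters and was not measured as a binding site. *Mrpl33* held the NRF1 core near its start, *Mrpl52* and *Mrps18a* held the ETS core at 2 places each, and *Mrpl16* held it once. Members with and without the ETS core had median changes in log2(FPKM + 1) of -0.27 and -0.26 for GDF15 and of -0.18 and -0.14 for TGF-β. With and without the NRF1 core the medians were -0.18 and -0.27 for GDF15 and -0.09 and -0.18 for TGF-β, and with and without the YY1 core -0.30 and -0.26, and -0.22 and -0.15. For the SP1 box they were -0.29 and -0.24, and -0.19 and -0.12, and for CCAAT -0.28 and -0.26, and -0.14 and -0.19. The NRF1 and YY1 values rest on the 8 and 12 members that hold those letters, and none of these differences was tested.

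All members were expressed in every library. In CTRL they spanned 48.4-fold, from 3.48 FPKM for *Mrps25* to 168 FPKM for *Mrpl33*, with a median of 22.2 FPKM. The 5 highest were *Mrpl33*, *Mrpl52* (141 FPKM), *Mrps21* (110 FPKM), *Mrpl30* (68.7 FPKM) and *Mrpl13* (65.1 FPKM). *Mrpl33*, *Mrps21*, *Mrpl30* and *Mrpl13* have bacterial counterparts, whereas *Mrpl52* is specific to mitochondria. The 5 lowest were *Mrps25*, *Mrpl19* (3.80 FPKM), *Mrpl41* (4.81 FPKM), *Mrpl35* (5.18 FPKM) and *Mrpl1* (5.21 FPKM), the last of these a protein of the stalk by which spent tRNA leaves the ribosome. Messages of proteins that sit in the same particle thus differed widely in FPKM. The middle part of the members lay closer together, between the quartiles of 13.3 and 34.6 FPKM. Medians were 20.8 FPKM for the large and 23.5 FPKM for the small subunit, and 22.3 FPKM with and 20.8 FPKM without a bacterial counterpart. The 76 expressed cytosolic ribosomal protein genes had a median of 497 FPKM in the same library.

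**Figure D1:**
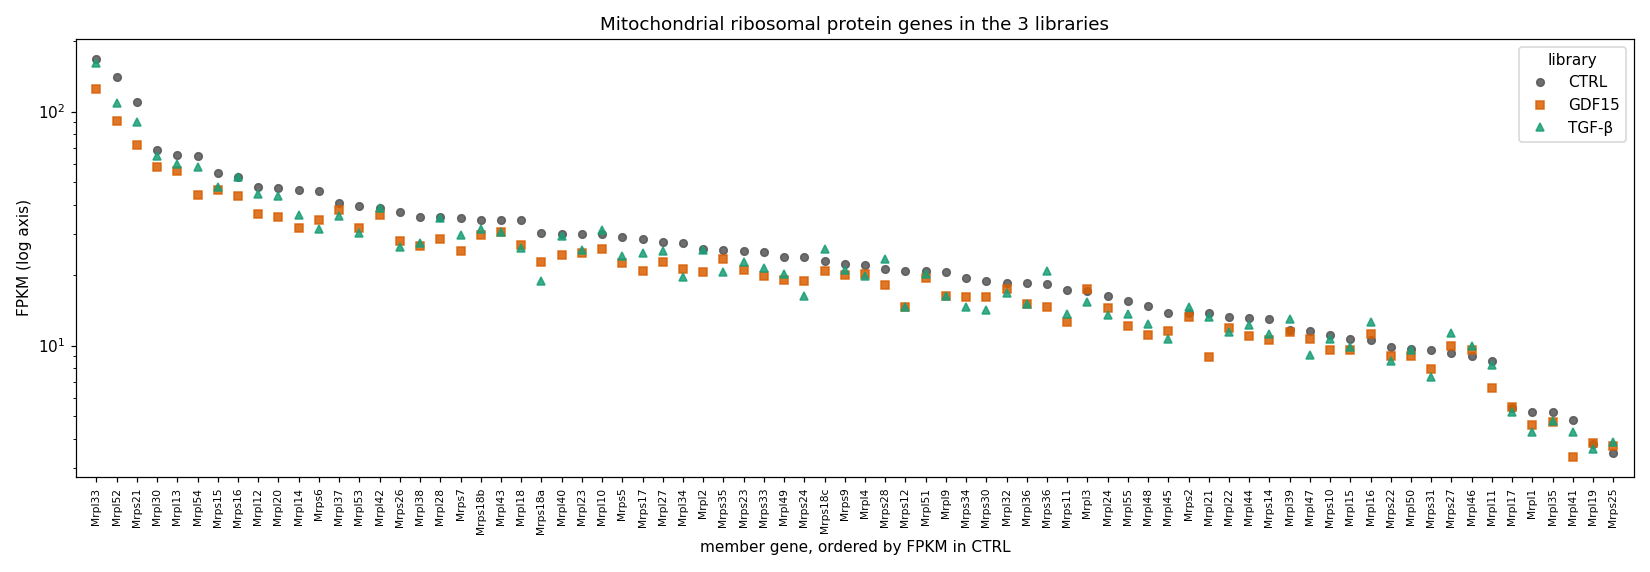
FPKM of the 76 members (log axis) in the CTRL, GDF15 and TGF-β libraries, 1 point per gene and library, ordered by CTRL. *Mrpl33* at 168 FPKM is highest in CTRL and *Mrps25* at 3.48 FPKM is lowest. For 61 members both stimulated libraries lie below CTRL, a count that was not made over all rows.

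Short members had higher FPKM. Across the 76 members, FPKM in CTRL was lower for longer transcripts (Spearman's rho = -0.44). The unit bears on these levels. The single-fragment steps of low FPKM values lined up best when 200 bases were taken from the length of each transcript, as Cufflinks does with an effective length, and this divisor raises the FPKM of a short message. Rescaled to the full transcript length, *Mrpl33* went from 168 to 97.8 and *Mrps25* from 3.48 to 3.36, and the range of the members went from 48.4-fold to 29.1-fold. The correlation is of FPKM as deposited, across genes of 1 library, and is given as a description.

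**Figure D2:**
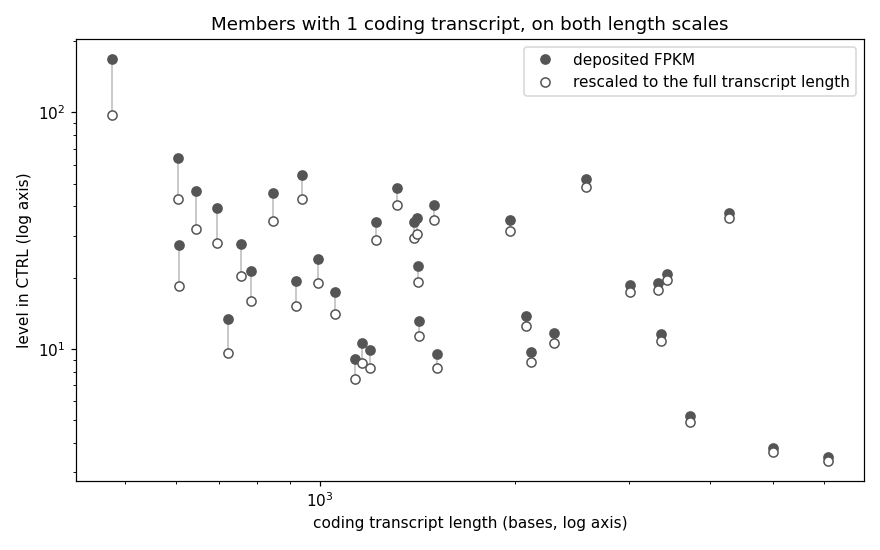
Level in CTRL (log axis) against transcript length (log axis) of the 37 members with 1 coding transcript. Filled points are deposited FPKM, open points the same rescaled to the full length, and grey lines join the same gene. *Mrpl33*, the shortest, moves from 168 to 97.8, while members over 2000 bases hardly move.

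With GDF15, the members were lower as a group by a small amount. The median change, GDF15 minus CTRL on the log2(FPKM + 1) scale, was -0.26, and 69 of 76 members (90.8%) were below 0, against 55.6% of all rows with a mean FPKM of at least 1. Their summed FPKM was 2205 in CTRL and 1759 in GDF15, a ratio of 0.798, or 0.666% and 0.574% of the summed FPKM of all genes. No member changed over 2-fold, the criterion of the study, which 0.477% of the 9226 rows with a mean FPKM of at least 1 met. A smaller criterion was a difference over 0.32 on the log2 scale. By it 24 members (31.6%) were lower, against 10.0% of these rows, and 0 were higher, against 6.53%.

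Other short genes were lower too. Across the 9117 other genes, the change by GDF15 rose with transcript length (rho = 0.48), and across the 76 members rho was 0.43. Among members of up to 800 bases the median change was -0.35 (15 genes), and among other genes of that length it was -0.37 (217 genes). Over 800 and up to 1200 bases the medians were -0.31 (19 members) and -0.25 (496 others), and up to 2000 bases -0.24 (19 members) and -0.14 (1520 others). The shortest members thus lay close to other short genes, and in the longer classes the members were lower than the others at the median. Over 2000 and up to 4000 bases the medians were -0.10 (14 members) and -0.04 (3714 others), and over 4000 bases -0.14 (9 members) and 0.08 (3170 others). With a floor of 10 FPKM the longest class stood further apart, at -0.37 (6 members, all below 0) and 0.09 (1641 others, 33.3% below 0), but of these 6 only *Mrps26* has a median coding length over 4000 bases. The shortest class was at -0.33 (14 members) and -0.41 (159 others) above this floor. Of the genes above this floor that were no longer than the median member, 35 members had a median change of -0.31 with 97.1% below 0, and 647 others had -0.27 with 90.1% below 0. Past 0.32 on the lower side were 42.9% of these members and 41.9% of these others. Of the longer genes above the floor, 30 members had a median of -0.23 with 23.3% lower by over 0.32, and 4692 others had -0.02 with 6.24%. The longer members had a median length of 2187 bases and the longer others of 3229 bases, so these last sets are not matched in length.

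Each member was therefore set beside the 5.5% of other genes nearest to it in length, and the median change of these was taken from its own. After this the median of the members was -0.09 for GDF15, with 52 of 76 (68.4%) below 0, against 50.4% of all genes with a length. Lower than genes of similar length by over 0.32 were 6 members (7.89%), against 5.12% of all genes with a length, and higher were 0, against 5.94%. The first of these shares is near the background. The typical local spread of the genes of similar length (a scaled median absolute deviation) was 0.20 around each member at the median. The change by GDF15 also went with GC content (rho = -0.45 across members and -0.46 across other genes), and with a trend on length and GC content together the median of the members was -0.08. With the median in place of the longest coding transcript as the length of each gene it was -0.15. By these lengths 9 members (11.8%, against 6.10% of genes) were lower by over 0.32, and 0 were higher, against 6.97%. With no minimum FPKM, unexpressed genes enter the reference. The median of the members was then -0.24 with 22 lower, near the -0.26 and 24 found without a length reference. No share of all genes is given for this setting. Across members the change by GDF15 went with the mean level too (rho = -0.46, against -0.09 across other genes), and short members are the more abundant ones.

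**Figure D3:**
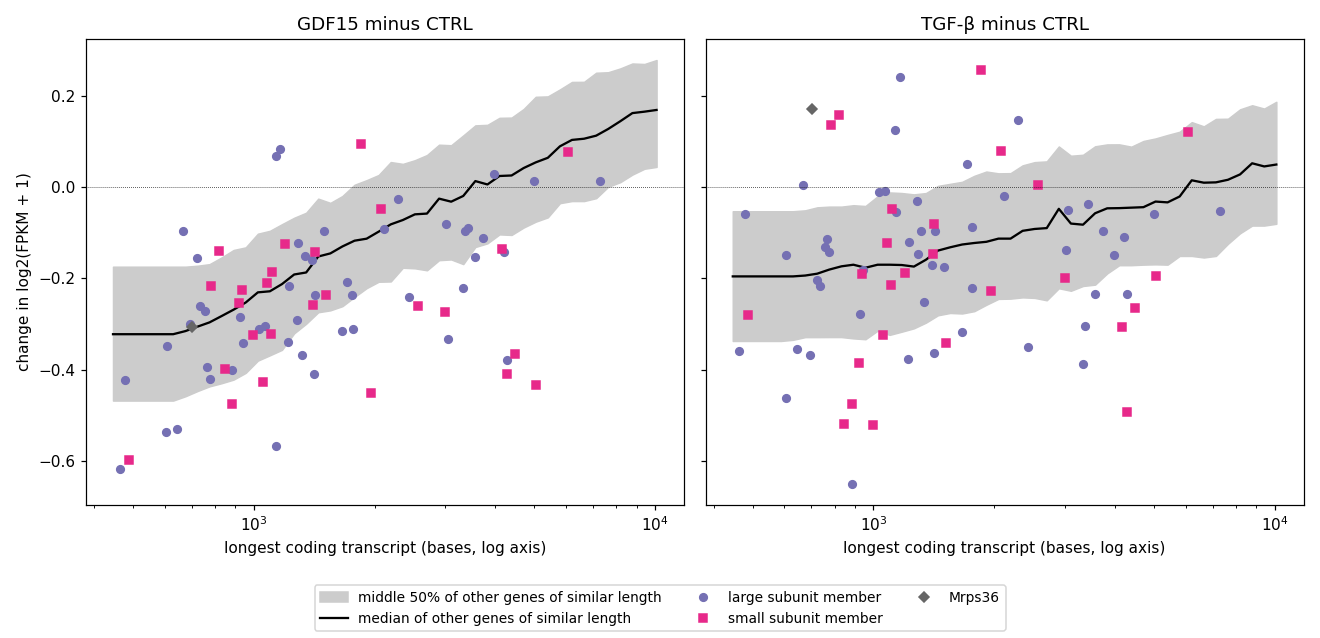
Change in log2(FPKM + 1) of the members against the length of the longest coding transcript (log axis), for GDF15 minus CTRL and TGF-β minus CTRL. Circles are large subunit members, squares small subunit members and the diamond *Mrps36*. The line and band are the median and the middle 50% of the other genes nearest in length. The members lie around the line, with medians against it of -0.09 and -0.03.

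Among the largest falls with GDF15 were those of short and abundant members. *Mrpl52*, a large subunit protein specific to mitochondria, was at 141 FPKM in CTRL, 91.2 FPKM in GDF15 and 109 FPKM in TGF-β, and its change by GDF15 was -0.62. *Mrps21*, a small subunit protein with a bacterial counterpart, was at 110, 72.0 and 89.96 FPKM in the same order, with a change of -0.60. Both transcripts are under 500 bases long, where genes of similar length changed by -0.32 at the median, and against these genes they stood at -0.30 and -0.28. *Mrpl54* (64.4, 44.1 and 58.0 FPKM) and *Mrpl14* (46.4, 31.8 and 36.0 FPKM) had changes of -0.54 and -0.53, and each was at -0.21 against genes of similar length. *Mrpl33* went from 168 to 125 FPKM, and its change of -0.42 was -0.10 against genes of similar length.

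*Mrpl21* has the shortest longest transcript of the 6 members below genes of similar length, at 1138 bases. It has a bacterial counterpart in the large subunit, and it stood at 13.8 FPKM in CTRL, 8.95 FPKM in GDF15 and 13.2 FPKM in TGF-β, so GDF15 alone was low. The change by GDF15 was -0.57, and -0.35 against genes of similar length. It stayed over 0.32 below these genes under all 10 alternatives that gave it a value. Its exons overlap those of *Ighmbp2* on the other strand, which was at 2.74, 2.43 and 2.62 FPKM.

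The other 5 members that were lower than genes of similar length have longer transcripts in the annotation, although some also have short ones. *Mrps26*, a small subunit protein specific to mitochondria, has 1 coding transcript of 4278 bases and was at 37.4, 27.9 and 26.3 FPKM. Genes of its length changed by 0.03 at the median with GDF15, and *Mrps26* stood at -0.43 against them. It was lower with both stimuli and rested on an estimated 2822 fragments in CTRL, the most of any member. *Mrps5* (29.2, 22.4 and 24.1 FPKM) stood at -0.39 and *Mrps7*, which organises the head of the small subunit, at -0.34 (35.03, 25.3 and 29.8 FPKM). *Mrps17* (28.5, 20.9 and 24.8 FPKM) stood at -0.49 and *Mrpl48* (14.7, 11.1 and 12.4 FPKM) at -0.40 when the longest transcript was used. The median coding transcripts of these 2 genes are 851 and 865 bases long, and with those lengths the values were -0.29 and -0.23, inside the criterion. *Mrps7* was inside it at -0.31 with the trend on length and GC content. Which transcript these cells used was not tested.

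A few members were higher with GDF15. *Mrps27*, a small subunit protein specific to mitochondria, went from 9.28 to 9.97 FPKM (change 0.09), *Mrpl16* from 10.6 to 11.2 FPKM (0.08), *Mrps25* from 3.48 to 3.72 FPKM (0.08) and *Mrpl46* from 9.06 to 9.54 FPKM (0.07). All 4 were higher still with TGF-β, and they were the only members above CTRL in both stimulated libraries. None of these 4 rises by GDF15 was beyond counting error. Against genes of similar length *Mrpl16* and *Mrpl46* were at 0.30 and 0.29, *Mrpl42* at 0.22 and *Mrps27* at 0.21, the highest of the members, and *Mrps25* was at -0.02, because genes as long as it rose by 0.10.

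With TGF-β the members were also lower, by less. The median change, TGF-β minus CTRL, was -0.15, and 64 of 76 members (84.2%) were below 0, against 62.8% of rows. Summed FPKM was 1938, a ratio of 0.879 to CTRL. No member was over 2-fold in either direction, against 1.48% of rows, 16 (21.1%) were lower by over 0.32, against 14.3%, and 0 were higher, against 6.80%. This excess of lower members was absent under other scalings. With the libraries scaled to a common upper quartile the median of the members was -0.09. There 7 (9.21%) were lower, against 9.86% of rows, and 0 were higher, against 9.27%. With the running median by expression removed the median was -0.08. There 6 (7.89%) were lower, against 9.31% of rows, and 1 (1.32%) was higher, against 9.90%. Under each of these scalings 54 of 76 members were below 0, where the medians of rows were -0.01 and -0.003. Against genes of similar length the median was -0.03, with 44 of 76 (57.9%) below 0, against 50.2% of genes. There 4 members (5.26%) were lower, against 8.55% of genes, and 4 were higher, against 9.56%, and whether the lower share is below the background depended on the lengths used. With median coding lengths the median was -0.07, and 7 (9.21%, against 8.66%) were lower and 2 (2.63%, against 9.86%) higher. Among genes of 1 coding transcript 4 of 37 members (10.8%, against 9.21%) were lower than genes of similar length, and 12 (32.4%, against 15.8%) were lower before this step. With no minimum FPKM, unexpressed genes enter the reference, and the median was -0.15 with 16 lower and 0 higher, the same as without a length reference. The change by TGF-β followed length less than that by GDF15, with rho = 0.12 across members and 0.24 across other genes.

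The largest falls with TGF-β included members of the large and the small subunit. *Mrps18a*, a relative of bacterial S18 that moved to the large subunit, was at 30.2 FPKM in CTRL, 22.7 FPKM in GDF15 and 18.9 FPKM in TGF-β. Its change by TGF-β of -0.65 was the largest fall of any member in any comparison, and against genes of similar length it was -0.48. *Mrps6* (45.6, 34.3 and 31.5 FPKM) and *Mrps24* (23.9, 18.9 and 16.3 FPKM), both of the small subunit with bacterial counterparts, changed by -0.52 each, and by -0.35 each against genes of similar length. *Mrps26* changed by -0.49, and by -0.45 against genes of similar length, which makes it the only member past the criterion against such genes with both stimuli. *Mrps12*, which lines the decoding centre, was at 20.8, 14.7 and 14.7 FPKM (change -0.47 with either stimulus), and *Mrpl34* at 27.4, 21.3 and 19.6 FPKM (-0.46 with TGF-β).

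Above genes of similar length with TGF-β were *Mrpl16*, *Mrps27*, *Mrps36* and *Mrps18c*. *Mrpl16* was at 12.7 FPKM in TGF-β, a change of 0.24 that was 0.41 above such genes, and *Mrps27* at 11.3 FPKM, a change of 0.26 that was 0.38 above them. *Mrps36* was at 18.4, 14.7 and 20.8 FPKM and *Mrps18c* at 23.1, 20.9 and 25.9 FPKM, and they stood 0.36 and 0.33 above genes of similar length. *Mrps18c* passed the criterion of 0.32 under 6 of its 10 alternatives and *Mrps36* under 7, so these 2 lie at its edge. Of these 4, *Mrps36* is not a ribosomal protein.

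The 2 stimulated libraries were also compared with each other. The median change, TGF-β minus GDF15, was 0.08 and 51 of 76 members were above 0, whereas 60.3% of rows were below 0. No member was over 2-fold (0.163% of rows), 0 were lower by over 0.32 (5.03%), and 5 were higher (6.58%, against 3.91%). With a common upper quartile, and also with the running median by expression removed, 9 were higher (11.8%, against 5.04% and 5.02% of rows). These 5 were *Mrpl21* (0.51), *Mrps36* (0.48), *Mrpl54* (0.39), *Mrpl33* (0.37) and *Mrps28* (0.35). Against genes of similar length the median was 0.05, 1 member was lower (1.32%, against 3.68%) and 3 were higher (3.95%, against 4.08%). The lower one was *Mrps18a* at -0.35, and the higher ones were *Mrpl21* at 0.45, *Mrps36* at 0.35 and *Mrpl11*, of the stalk base where elongation factors land, at 0.32. *Mrpl11* rested on an estimated 66.3 to 73.6 fragments per library. The differences of *Mrpl11* and *Mrps18a* between these libraries were not beyond counting error. *Mrps18a* and *Mrpl11* passed the criterion under 7 of 10 alternatives each, and with median coding lengths they were at -0.26 and 0.27, inside it.

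The other 36 members are those left once the extremes had been named, so their narrower ranges follow from that choice. They lay between 5.43 and 54.5 FPKM in CTRL, and their changes ran from -0.43 to 0.01 with GDF15 (median -0.24) and from -0.39 to 0.08 with TGF-β (median -0.17). Against genes of similar length their values ran from -0.25 to 0.08 for GDF15 and from -0.30 to 0.20 for TGF-β.

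The order of the 3 libraries differed between members. In 39 the order from high to low was CTRL, TGF-β, GDF15, and in 22 it was CTRL, GDF15, TGF-β. Orders were not counted over all rows, so these numbers have no background. Of the 647 other genes of at least 10 FPKM that were no longer than the median member, 90.1% were below CTRL with GDF15 and 81.5% with TGF-β. Among the members the remaining orders were few. TGF-β was highest and GDF15 lowest in 8 members, among them *Mrps36*, *Mrps18c*, *Mrps28* and *Mrpl39*. GDF15 was highest and TGF-β lowest in 3, *Mrpl3*, *Mrpl17* and *Mrpl19*, whose differences from CTRL by GDF15 were 0.03 at most. Both changes share the CTRL library, so a high or low value there moves a member the same way in both.

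Counting error alone was estimated from the fragments behind each value. Members rested on 34.6 to 2822 fragments in CTRL with a median of 347, and calls were made on the log2 ratio of plain FPKM, with no 1 added, which is somewhat larger than the changes printed above. The reach to either side of its 95% counting interval was 0.21 at the median for GDF15 and 0.22 for TGF-β. For GDF15, 45 members (59.2%) were lower beyond this interval, against 25.4% of expressed genes with a length, and 0 were higher, against 19.6%. Among the genes of at least 10 FPKM that were no longer than the median member, it was 74.3% of the 35 members and 65.1% of the 647 others. For TGF-β, 30 members (39.5%) were lower, against 30.5%, and 1, *Mrps27*, was higher, against 15.5%. Among the same short genes it was 37.1% of the 35 members and 47.1% of the 647 others. These members rested on fewer fragments, with a median of 286 in CTRL against 473, and so have wider intervals. Between TGF-β and GDF15, 5 members (6.58%) were lower, against 21.3%, and 18 (23.7%) were higher, against 11.8%, and among the short genes 34.3% of the members and 36.5% of the others were higher. *Mrpl41*, with 34.6 fragments in CTRL, was at 4.81, 3.34 and 4.26 FPKM, and its difference by GDF15 lay within its reach of 0.72. These intervals cover counting error only, not the spread between cultures, which pooling removed from view.

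The medians of the subunits were close. For GDF15 the median change was -0.24 in the 49 large and -0.26 in the 26 small subunit genes, with 15 (30.6%) and 9 (34.6%) lower by over 0.32, against 10.0% of rows. For TGF-β the medians were -0.14 and -0.20, with 9 (18.4%) and 7 (26.9%) lower, against 14.3%. Members with a bacterial counterpart (47) and those specific to mitochondria (27) had medians of -0.26 and -0.24 for GDF15, and of -0.14 and -0.17 for TGF-β. Against genes of similar length the 4 groups had medians between -0.09 and -0.08 for GDF15.

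The relatives of bacterial S18 had unlike values. *Mrps18a*, of the large subunit, was lower in both stimulated libraries, with changes of -0.40 and -0.65. *Mrps18b* (34.5, 29.7 and 31.6 FPKM) and *Mrps18c*, both of the small subunit, changed by -0.21 and -0.14 with GDF15 and by -0.12 and 0.16 with TGF-β. For *Mrps18a* the change by TGF-β was beyond counting error, and for *Mrps18c* it was within it. *Mrpl12*, whose protein forms the mobile stalk and is known to bind the mitochondrial RNA polymerase, was at 47.6, 36.7 and 44.5 FPKM, and its change by GDF15 of -0.37 was -0.18 against genes of similar length.

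Genes that work with this ribosome were taken from lists. Mitoribosomal proteins with other symbols, such as *Dap3* and *Ptcd3*, had median changes of -0.15 for GDF15 and -0.19 for TGF-β over 7 genes, with 3 (42.9%, against 10.0% of rows) and 1 (14.3%, the same as the share of rows) lower by over 0.32 and 0 higher. *Chchd1* went from 46.7 to 34.5 and 33.0 FPKM, and *Mrp63*, whose symbol the rule does not take, from 7.69 to 5.62 and 5.98 FPKM. Among 15 genes listed as mitochondrial translation factors, such as *Tufm* (27.7, 25.6 and 27.8 FPKM), the medians were -0.00 and -0.04 and no gene passed 0.32. This list is broad and also holds *Lrpprc*, *Oxa1l* and *Pde12*. The 19 genes listed with the mitochondrial tRNA synthetases, among them the amidotransferase genes *Qrsl1* and *Gatc*, had medians of -0.11 and -0.09. Of these, 1 (5.26%) and 2 (10.5%) were lower, both shares below those of rows, among them *Sars2* at 9.54, 6.68 and 7.84 FPKM. The 11 genes of mitochondrial transcription and RNA processing had medians of 0.01 and -0.02, with 0 past 0.32. These partner genes have longer transcripts than the members, with medians of 2623 bases for the list of translation factors and 3228 bases for that of the synthetases.

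Assembly and rRNA modification factors (26 genes) had medians of -0.12 and -0.13, with 4 (15.4%, against 10.0%) and 3 (11.5%, against 14.3%) lower. *Mterfd2*, which guides a methyltransferase to the large subunit, was the one gene over 2-fold on the log2(FPKM + 1) scale among the genes of all these lists that averaged 1 FPKM or more, at 198, 65.7 and 40.4 FPKM. Of its 5271 exon bases, 1855 are shared with *Sned1* on the other strand, which was at 228, 74.7 and 46.9 FPKM, and the reads of these genes cannot be told apart if strand was not used in counting. Of 13 nuclear regulators, 2 (15.4%) were lower and 1 (7.69%) higher with GDF15, against 10.0% and 6.53% of rows, and 3 (23.1%) were lower with TGF-β, against 14.3%. Lists this small give such shares from 1 or a few genes, and nothing particular to them is read from the counts. *Gabpa*, which binds the ETS core, went from 7.64 to 10.7 FPKM with GDF15 (0.43), *Esrra*, a nuclear receptor of mitochondrial genes, went from 12.02 to 8.79 and 7.47 FPKM, and *Ppargc1b*, its coactivator, from 1.81 to 1.01 and 0.860 FPKM. The 76 cytosolic ribosomal protein genes were lower by more than the members, with medians of -0.42 and -0.26, and of -0.19 and -0.10 against genes of similar length.

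**Figure D4:**
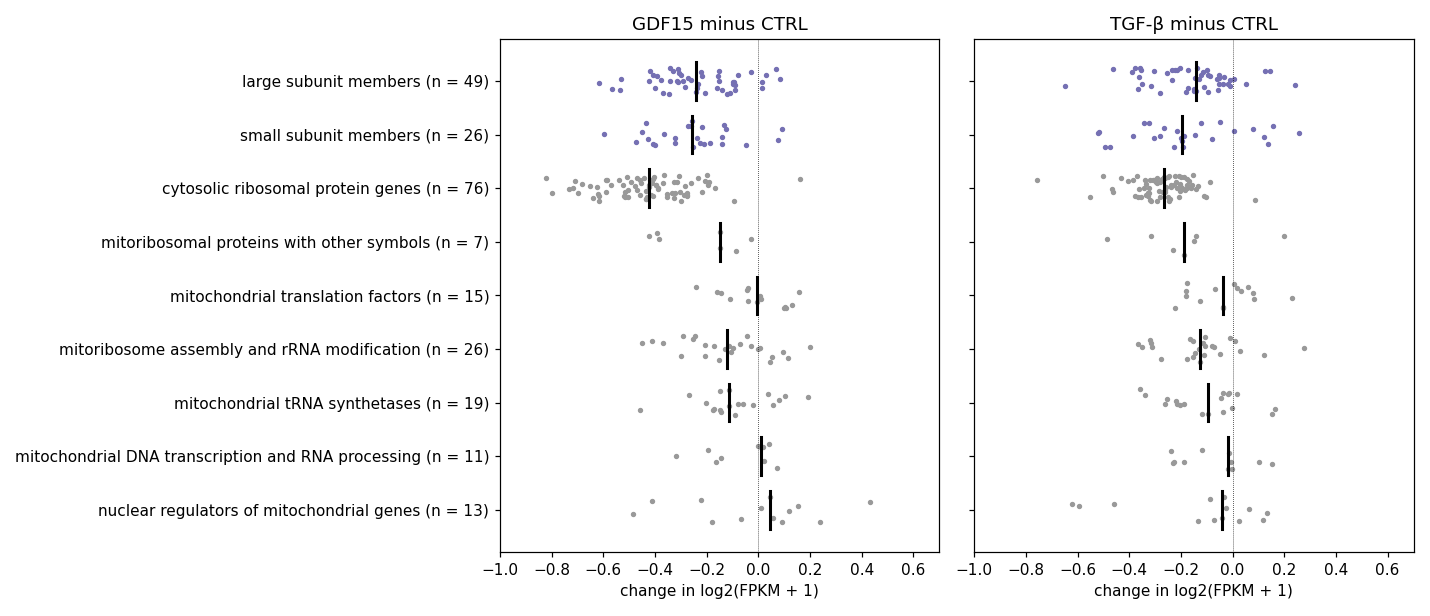
Change in log2(FPKM + 1) by GDF15 and by TGF-β for the members by subunit (purple), cytosolic ribosomal protein genes and the lists of partner genes (grey), 1 point per gene with a mean FPKM of at least 1 and a bar at the median. *Mterfd2* lies to the left of the plotted range. For GDF15 the members have medians of -0.24 and -0.26, between the cytosolic ribosomal protein genes at -0.42 and the translation factors at 0.

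Many members share their start with a neighbour. A start of another gene on the other strand lay within 500 bases for 24 members (31.6%), against 15.02% of expressed genes and 23.9% of expressed genes no longer than the median member. *Mrps12* and *Sars2*, both of mitochondrial translation, start 172 bases apart, and they changed by -0.47 and -0.46 with GDF15 and by -0.47 and -0.25 with TGF-β. *Mrpl46* and *Mrps11*, both members, have overlapping starts and differed, with changes by GDF15 of 0.07 and -0.43. *Mrpl36* and *Ndufs6*, a subunit of respiratory complex I, changed by -0.28 and -0.49 with GDF15 and by -0.28 and 0.05 with TGF-β. These 3 pairs were chosen after their values were seen. Over the 20 pairs whose partner had a mean FPKM of at least 1, 18 members and 16 partners were below 0 with GDF15, against 55.6% of all rows. Member and partner differed by over 0.32 in 5 pairs. With TGF-β, 17 members and 13 partners were below 0, against 62.8% of rows, and 6 pairs differed by over 0.32. The pair of *Mrpl46* and *Mrps11* entered once, with *Mrps11* as the partner. How often other neighbouring genes differ by over 0.32 was not counted.

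Overlap with other genes touched 23 members, whose exons share bases with those of another protein coding gene, on the other strand in 20. On the same strand, *Mrpl53* shares 695 of its 790 exon bases with *Gm42688*, *Mrps34* 763 of 2064 with *Nme3*, *Mrps24* 226 of 1466 with *Urgcp*, and *Mrps6* 305 of 1533 with *Gm49711* and 159 with *Slc5a3*, so their values are uncertain where reads could be split. Without these 23, the other 53 members had medians of -0.24 and -0.14, and 16 (30.2%) and 8 (15.1%) were lower by over 0.32. The first share stayed above the 10.0% of all rows for GDF15, and the second was near the 14.3% for TGF-β. *Mrpl23*, *Mrpl48* and *Mrps36* have named pseudogenes, and the 73 members without one had medians of -0.24 and -0.15.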

How the data were processed

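RNA of NIH3T3 cells was measured in 3 libraries, 1 for each treatment, from pooled RNA. The authors deposited FPKM per gene, restricted to protein coding genes. The submitters' processing notes name TopHat 1.3.2, Bowtie 0.12.9, Cufflinks 2.0.2 and the build mm10. The gene annotation and the use of strand in counting are not given in the sources used here. These FPKM were not rescaled.

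A change is the difference of log2(FPKM + 1) between libraries, a scale on which low genes change less than in FPKM. Counts over 2-fold and over 0.32 on the log2 scale are set beside all 9226 rows with a mean FPKM of at least 1. Transcript lengths came from GENCODE M21 (GRCm38, the same build as mm10), and 15473 of 15554 rows were matched, 748 by an older symbol. For the length reference, the median change of the 5.5% of expressed non-members nearest in length of the longest coding transcript was subtracted. Depth was estimated from single-fragment steps of low FPKM, with 0 to 300 bases taken from the length. Fragments per gene use the median coding length less 200 bases, and single-end reads have no molecular identifiers, so intervals cover counting error only. Promoters came from RefSeq (GRCm38.p6).

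No test was made, with 1 library per treatment. Members and lists were chosen with earlier results of these data known. Named are the 5 highest and lowest members in CTRL, the 5 largest rises and falls of each comparison before and after the length reference, *Mrps18a*, *Mrps18b*, *Mrps18c*, *Mrpl12*, and overlapping members past the length reference. Members of shared-start pairs or with same-strand overlap, *Mrpl17* and the list genes other than *Mterfd2* were partly chosen after their values were seen. The procedure was tested on simulated data with planted shifts larger than any change of a member, so this does not bear on changes of the size reported. Alternatives are given in the closing section. Tables were handled in pandas 2.3.3 and numpy 2.4.6, correlations came from scipy 1.17.1 and plots from matplotlib 3.10.9, under Python 3.11.15.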

Additional observations from a re-analysis of the deposited data

How the results depend on the processing

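No paired analysis was possible because no treatment was sequenced more than once. Of 4098 alternative values of single members, 4069 moved by less than the local spread and 29 moved further. The sign changed in 155 of them, 50 of these with no minimum FPKM, and all were values within 0.22 of 0. Of the counts and medians, 172 of 195 stayed near their value. The median change of the members stayed between -0.27 and -0.22 for GDF15, between -0.17 and -0.08 for TGF-β and between 0.04 and 0.12 for TGF-β minus GDF15. The medians against genes of similar length ran from -0.24 to -0.08, from -0.15 to -0.02 and from 0.04 to 0.09. With no minimum FPKM, where unexpressed genes enter the reference, 22 members were lower with GDF15 than genes of similar length and 16 with TGF-β, 0 were higher with TGF-β, and 0 were lower and 5 higher in TGF-β minus GDF15. With a pseudocount of 0.1, and with none, 1 member was higher than genes of similar length with GDF15. Scaling to a common upper quartile left 7 members lower with TGF-β and 9 higher in TGF-β minus GDF15. Removing the running median by expression left 6 lower and 1 higher with TGF-β, and 9 higher in TGF-β minus GDF15. With median coding lengths, 7 members (9.21%, against 8.66%) were lower and 2 (2.63%, against 9.86%) higher than genes of similar length with TGF-β. In TGF-β minus GDF15, 0 were lower by these lengths, against 3.74%, and 5 (6.58%, against 4.51%) were higher. 2 alternatives were added after the data were seen. With genes nearest in length and expression, 0 were lower in TGF-β minus GDF15 against the reference. The 37 members of 1 coding transcript were set beside the other genes of this kind. Of these members 12 (32.4%, against 11.5%) were lower with GDF15 and 12 (32.4%, against 15.8%) with TGF-β. In TGF-β minus GDF15, 3 (8.11%, against 4.50%) were higher. Against genes of similar length 3 (8.11%, against 5.77%) were lower with GDF15. With TGF-β 4 (10.8%, against 9.21%) were lower there and 1 (2.70%, against 10.3%) higher. In TGF-β minus GDF15, 0 were lower there, against 4.96%, and 1 (2.70%, against 4.67%) was higher. The causes were not tested, except that fewer members enter the last alternative. With 1 library per treatment, the spread between cultures limits every value and is unknown.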
